A study of Mus musculus with 40 samples.

Results

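The tetraspanin genes *Cd9*, *Cd37*, *Cd53*, *Cd63*, *Cd81*, *Cd82* and *Cd151* were followed in mouse cortex by their gene symbol. The count table lists 43346 genes, each of the 7 symbols names 1 row, and all 7 were among the 21253 genes tested, the genes that reached 10 counts in 4 or more of the 40 libraries. The study asked how the H157Y change in *Trem2*, a microglial receptor, acts on the cortical transcriptome with and without amyloid. Bulk poly-A RNA of 1 cortex per mouse was sequenced. The 4 groups held 10 mice each, 5 females and 5 males. The amyloid WT and amyloid Hom groups were 8.5 months old and hemizygous for 5xFAD, mutant human transgenes of familial Alzheimer's disease under the neuronal *Thy1* promoter. Amyloid WT mice had the normal *Trem2* alleles, and amyloid Hom mice were homozygous for the H157Y knock-in, which was made by CRISPR/Cas9. The non-amyloid WT and non-amyloid Hom groups carried the same *Trem2* genotypes without 5xFAD and were 6 months old, so transgenes and age cannot be told apart between the cohorts. Genotypes within a cohort were bred as littermates, Hom mice go back to few founder animals, and heterozygous mice were not analysed here.

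Tetraspanins are small proteins that cross the membrane several times and pair sideways with integrins, immunoglobulin-superfamily proteins and proteases, so that they gather these partners into patches of membrane. *Cd9*, *Cd63* and *Cd81* products are used as markers of extracellular vesicles, and CD63 sits mainly in late endosomes and lysosomes. *Cd37* and *Cd53* are largely confined to leukocytes, lymphocytes among them, which in the brain parenchyma are mainly microglia. *Cd9*, *Cd81*, *Cd82* and *Cd151* are made by many cell types, glia and vascular cells among them. *Cd63* is also among the disease-associated microglial genes the study itself named on these samples, so its direction is not independent evidence. The study reported it as lower in amyloid Hom than in amyloid WT mice.

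The promoters of the 4 members called higher in amyloid mice of both genotypes are shown. RefSeq promoter windows were matched by symbol for all 7 members (11 windows, mm10, as GRCm38.p6), and each line gives 250 bases before and 20 after the transcription start, 5′ to 3′ on the gene's strand. Capitals mark GAGGAAGT, the core of the site bound by PU.1 and related ETS factors, and CACGTG, an E-box, on either strand.
Cd37, chr7:45238820-45239089, minus strand: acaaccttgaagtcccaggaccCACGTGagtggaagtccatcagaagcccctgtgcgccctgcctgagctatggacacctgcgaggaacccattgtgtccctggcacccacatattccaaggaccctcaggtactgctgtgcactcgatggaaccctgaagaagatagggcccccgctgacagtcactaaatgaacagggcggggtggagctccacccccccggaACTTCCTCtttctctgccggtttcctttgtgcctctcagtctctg
Cd53, chr3:106790130-106790399, minus strand: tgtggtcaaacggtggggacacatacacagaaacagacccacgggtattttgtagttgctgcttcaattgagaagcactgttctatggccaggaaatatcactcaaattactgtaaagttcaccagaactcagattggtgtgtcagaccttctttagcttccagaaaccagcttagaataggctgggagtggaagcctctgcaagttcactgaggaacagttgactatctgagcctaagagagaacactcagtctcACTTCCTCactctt
Cd63, chr10:128909095-128909364, plus strand: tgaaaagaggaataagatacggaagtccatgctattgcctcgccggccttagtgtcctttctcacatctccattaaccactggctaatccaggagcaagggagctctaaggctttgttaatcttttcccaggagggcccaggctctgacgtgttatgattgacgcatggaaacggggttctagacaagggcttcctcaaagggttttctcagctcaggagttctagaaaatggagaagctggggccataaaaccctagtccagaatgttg
Cd9, chr6:125494741-125495010, minus strand: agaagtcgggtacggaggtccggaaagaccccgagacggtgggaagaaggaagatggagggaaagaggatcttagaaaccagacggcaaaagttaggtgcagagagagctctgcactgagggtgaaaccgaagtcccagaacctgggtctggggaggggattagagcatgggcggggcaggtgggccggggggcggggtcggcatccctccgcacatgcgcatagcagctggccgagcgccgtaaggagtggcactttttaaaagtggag
The ETS letters stood 25 bases before the start of *Cd37* and 6 bases after that of *Cd53*, in both cases on the opposite strand. They were in 3 of the 11 member windows of 300 bases, the third being a *Cd82* window, and in 3.2% of all 32851 windows. CACGTG was in the *Cd37* window, 228 bases before the start, and in 7.15% of all windows. The longer E-box TCACGTGA, which contains CACGTG, was in 0 member windows and in 0.974% of all windows. These matches are letters in a window and were not tested as binding sites.

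Library totals ranged from 41646271 to 105903846 counts with a median of 77193387. The lowest total was that of replicate 19, an amyloid Hom female, which also stood apart in the share of its counts that fell on 346 genes lying opposite a gene on the other strand. That share was 0.639% in replicate 19 and between 0.0164% and 0.0212% in the other 39 libraries. The lowest member count in any library was 123 (*Cd37*, non-amyloid Hom). Counting error alone gives *Cd37* a coefficient of variation (CV) of 7.19% in non-amyloid WT mice, a large part of the 10.6% observed there, and 7.54% of 19.6% in non-amyloid Hom mice. For the other members it gives from 0.700% to 3.92%, below the observed CV in each group (5.76% to 33.3%). Microglial markers *Csf1r*, *C1qa* and *Tmem119* were measured in every group, as were the neuronal, astrocyte and oligodendrocyte markers of cortex. The B cell gene *Ms4a1* did not reach the count filter, whereas the B cell genes *Cd79a* and *Cd79b* did. Each library stood for 1 mouse, and p-values measure the spread between mice. In bulk tissue, fewer cells of a type and less RNA per cell cannot be told apart.

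*Trem2*, the edited gene, was measured first. H157Y changes 1 residue and not the counting of the transcript, so the level of *Trem2* does not check the genotype labels. *Trem2* was at 10.7 ± 2.13 CPM (counts scaled to library size; mean ± SD, n = 10) in non-amyloid WT and 10.4 ± 1.59 in non-amyloid Hom mice. It was at 62.2 ± 24.4 CPM in amyloid WT and 33.9 ± 10.3 in amyloid Hom mice. The log2 difference of Hom from WT was -0.87 ± 0.21 (SE) in the amyloid cohort (adjusted p = 0.0763, edgeR quasi-likelihood test) and was not called. The cohort labels were checked on *Thy1*, whose promoter drives the transgenes, and all 20 amyloid libraries lay above all 20 others for it (1206 to 2510 against 498 to 763 CPM). *App*, chosen for the same check, overlapped between the cohorts in both genotypes. Its log2 fold change between cohorts was 0.27 ± 0.05 in WT (adjusted p = 0.00146, called) and 0.15 ± 0.05 in Hom mice (adjusted p = 0.0574, not called).

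The members differed widely in level. Per kilobase of the gene length in the count table, *Cd81* was the most abundant with a mean of 100.9 CPM per kb over the 40 libraries, above 98.1% of the genes tested. *Cd63* (44.5 CPM per kb) and *Cd9* (30.8) came next, then *Cd151* (10.8), *Cd53* (8.91) and *Cd82* (4.94). *Cd37* was the least abundant at 1.28 CPM per kb, above 36.8% of the genes tested. The order was not the same in every group. *Cd151* stood above *Cd53* in non-amyloid WT mice (10.2 ± 1.103 against 5.41 ± 1.05 CPM per kb), whereas in amyloid WT mice *Cd53* (14.8 ± 3.80) and *Cd151* (12.1 ± 1.70) lay within the spread of each other. The place of *Cd63* rests on its length, 1031 bases in the count table against 3682 exonic bases in GENCODE vM21, with which its level would be 12.5 CPM per kb, below *Cd9*. The members lie on chromosomes 2, 3, 6, 7 and 10 (mm10), and exons of an opposite-strand gene cover 10.7% of the exonic bases of *Cd9*, 7.04% of *Cd151*, 3.61% of *Cd81* and 0.369% of *Cd37*. Whether reads of those genes were counted to the members is uncertain, because the strand setting of the counting is not given in the sources used here.

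The comparison of amyloid WT with non-amyloid WT mice asked how the members stood in amyloid-bearing cortex with normal *Trem2*. Of the 7 members, 6 were called higher and 0 lower (called: adjusted p under 0.05 with a log2 fold change beyond 0.25 in either direction). Of all genes tested, 7.31% were called in either direction and 6.21% were called higher. The leukocyte genes *Cd37* and *Cd53* and the broadly expressed *Cd9* differed most, *Cd63* was intermediate, and *Cd82*, *Cd81* and *Cd151* differed least.

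*Cd37* ranged from 2.22 to 3.03 CPM in non-amyloid WT mice (median 2.69) and from 5.68 to 13.6 in amyloid WT mice (median 7.78). The groups did not overlap, and the log2 fold change was 1.70 ± 0.13 (SE; adjusted p = 3.61e-09). *Cd53*, the other leukocyte member, ranged from 6.61 to 12.5 CPM (median 9.35) and from 15.7 to 36.7 (median 26.2). These groups did not overlap either, with a log2 fold change of 1.45 ± 0.14 (adjusted p = 8.57e-08). *Cd9* ranged from 34.7 to 45.9 CPM (median 38.98) in non-amyloid WT and from 54.4 to 168.8 (median 105.3) in amyloid WT mice. Every amyloid WT mouse was above every non-amyloid WT mouse, and the log2 fold change was 1.43 ± 0.13 (adjusted p = 4.24e-08). *Cd63*, the late endosomal member, ranged from 31.2 to 40.4 CPM (median 36.3) and from 47.3 to 88.5 (median 62.4). Its groups were again separate, at a log2 fold change of 0.87 ± 0.10 (adjusted p = 1.57e-06). All amyloid WT libraries were above all non-amyloid WT libraries for 1.95% of the genes tested.

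The remaining members overlapped between these groups. *Cd82*, known as a suppressor of metastasis and cell migration, had medians of 13.3 CPM (10.8 to 14.7) in non-amyloid WT and 16.8 CPM (12.996 to 24.5) in amyloid WT mice. It was called at a log2 fold change of 0.41 ± 0.10 (adjusted p = 0.00656), with 7 of 10 amyloid WT mice above all non-amyloid WT mice. *Cd81*, which is made by most cells, had medians of 214.7 CPM (184.2 to 230.9) and 259.7 (220.0 to 326.3). It was called at a log2 fold change of 0.31 ± 0.06 (adjusted p = 0.00138), with 9 of 10 amyloid WT mice above all others. *Cd151*, a partner of laminin-binding integrins, had medians of 20.0 CPM (17.8 to 25.1) and 23.7 (20.7 to 32.4). It was not called, at a log2 fold change of 0.24 ± 0.08 (adjusted p = 0.0607). Without non-amyloid WT replicate 1, amyloid WT replicate 8 or amyloid WT replicate 22 its value was 0.27, 0.26 or 0.26 and it was called (adjusted p = 0.0226, 0.0356 and 0.0448).

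**Figure D1:**
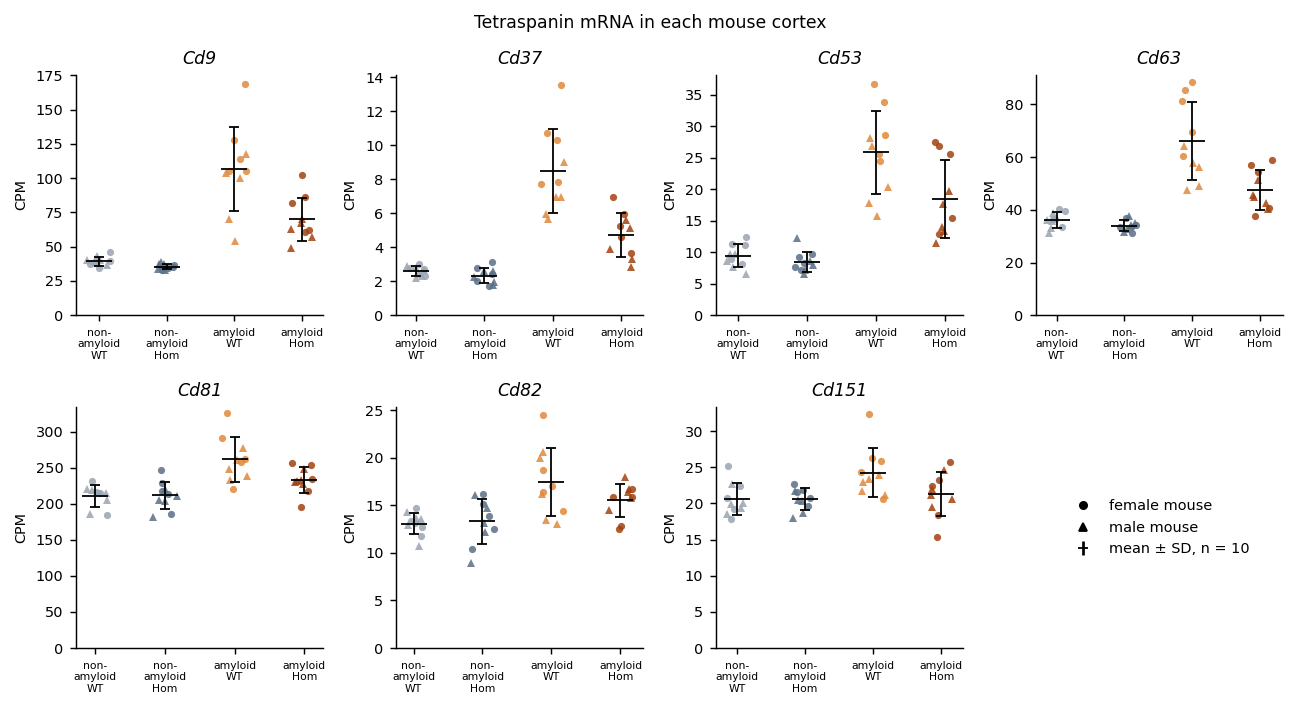
CPM of each member (y axis, linear from 0) in the 40 mice by group (x axis), circles for females and triangles for males, with the mean and SD of 10 mice. Amyloid WT mice lie above all non-amyloid WT mice for *Cd9*, *Cd37*, *Cd53* and *Cd63*, with the amyloid Hom means between, while *Cd81*, *Cd82* and *Cd151* overlap.

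In Hom mice, the same comparison of cohorts asked whether the members also stood higher with both *Trem2* alleles edited. Of the 7 members, 4 were called higher and 0 lower, where 5.89% of all genes were called and 4.9% were called higher. *Cd53* had a median of 8.17 CPM (6.60 to 12.2) in non-amyloid Hom and 16.6 CPM (11.4 to 27.4) in amyloid Hom mice, a log2 fold change of 1.12 ± 0.16 (adjusted p = 5.43e-05). *Cd37* had medians of 2.35 CPM (1.69 to 3.11) and 4.86 (2.84 to 6.94), a log2 fold change of 1.02 ± 0.15 (adjusted p = 9.49e-05). *Cd9* had medians of 35.01 CPM (32.8 to 38.9) and 65.0 (48.7 to 102.1), a log2 fold change of 0.98 ± 0.10 (adjusted p = 3.85e-07). *Cd9* alone among the 7 members kept every amyloid Hom mouse above every non-amyloid Hom mouse, as did 0.875% of all genes, whereas *Cd37*, *Cd53* and *Cd63* each had 9 of 10 above. *Cd63* had medians of 33.9 CPM (31.1 to 37.7) and 45.2 (37.6 to 58.9), a log2 fold change of 0.48 ± 0.07 (adjusted p = 0.00018). The lowest amyloid Hom value of *Cd63* was that of replicate 19, and without it the log2 fold change was 0.51. *Cd82* (0.22 ± 0.10), *Cd81* (0.14 ± 0.05) and *Cd151* (0.05 ± 0.07) were not called, with adjusted p of 0.165, 0.129 and 0.716. Without replicate 19, the same number of members, 4, was called. The difference between the genotypes in these values is the interaction given below.

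The comparison of amyloid Hom with amyloid WT mice asked whether H157Y altered the members in the presence of amyloid. It uses the same amyloid WT mice as the first comparison. All 7 members had lower means in Hom mice, and 0 of 7 were called by edgeR's quasi-likelihood test without a covariate, where 16 of all genes tested were called (0.0753%). The study, which left out 1 amyloid Hom female, reported many more genes in this comparison, *Cd63* among those lower in Hom mice. The reason for this difference was not tested. An unadjusted p under 0.05 was found for 6 members and for 9.67% of all genes. The median log2 fold change of the members was -0.48, against 0.00 over all genes. Once sex entered the fit as a covariate, *Cd9*, *Cd37* and *Cd63* were called (1.18% of all genes were called), as they were by DESeq2 (1.41%) and in 1 fit of all 40 libraries (2.88%), whereas limma-voom with sample weights called 0 members.

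*Cd37* had a median of 7.78 CPM in amyloid WT and 4.86 in amyloid Hom mice, and 8 of 10 Hom mice lay below every WT mouse. Its log2 fold change was -0.84 ± 0.17 (SE; adjusted p = 0.0525), which ranked 22 by p among the genes tested. With sex as a covariate it was -0.83 (adjusted p = 0.00574). *Cd9* had medians of 105.3 and 65.0 CPM, and 7 of 10 WT mice lay above every Hom mouse. Its log2 fold change was -0.61 ± 0.16 (adjusted p = 0.083), and -0.60 with sex as a covariate (adjusted p = 0.0202). *Cd63* had medians of 62.4 and 45.2 CPM, and 6 of 10 Hom mice were under the lowest WT mouse. Its log2 fold change was -0.48 ± 0.12 (adjusted p = 0.0787), and -0.46 with sex as a covariate (adjusted p = 0.0155). *Cd53* had medians of 26.2 and 16.6 CPM and overlapped more, with 5 Hom mice below every WT mouse. Its log2 fold change was -0.49 ± 0.18 (adjusted p = 0.286), and it was called in none of the alternatives run.

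The calls of *Cd37*, *Cd9* and *Cd63* turned on single libraries, and so did the number of all genes called. Without amyloid WT replicate 13, *Cd37*, *Cd9* and *Cd63* were called (adjusted p = 0.019, 0.0219 and 0.0295), and *Cd53* was not. That fit called 204 of all genes tested, against 16 with every library kept. Replicate 13 was a male and the lowest of its group for *Cd9*, *Cd53* and *Cd63*. Without amyloid WT replicate 22, *Cd37* and *Cd63* were called (adjusted p = 0.0332 and 0.0416), where 95 of all genes were. Without amyloid WT replicate 9, amyloid Hom replicate 3 or amyloid Hom replicate 34, *Cd37* was called (adjusted p = 0.0355, 0.0377 and 0.0489). These fits called 60, 65 and 30 of all genes. Without replicate 19, 0 members were called, and the log2 fold changes were -0.81 (*Cd37*), -0.59 (*Cd9*), -0.45 (*Cd63*) and -0.44 (*Cd53*). With sex as a covariate and replicate 19 left out together, *Cd37*, *Cd9* and *Cd63* were called, where 204 of all genes were.

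*Cd81* (-0.17 ± 0.06), *Cd151* (-0.19 ± 0.09) and *Cd82* (-0.17 ± 0.10) had smaller differences, with adjusted p of 0.313, 0.489 and 0.604, and their groups overlapped. Replicate 19 was the lowest amyloid Hom library for each of these 3. Without it their log2 fold changes were -0.14, -0.15 and -0.14.

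**Figure D2:**
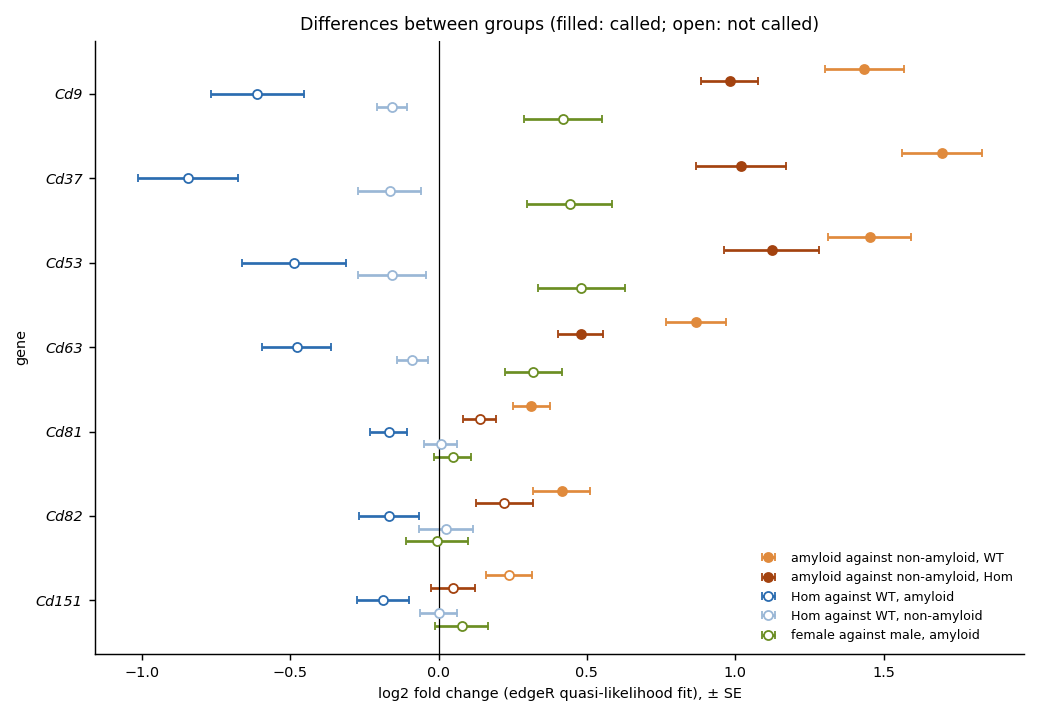
Log2 fold change (x axis) with its SE for each member (y axis) in 5 comparisons, filled where called and open where not. Calls were made for 6 members in amyloid against non-amyloid WT mice and 4 in Hom mice, and all 7 values of Hom against WT in the amyloid cohort lie below 0 without a call.

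In the non-amyloid cohort, the comparison of Hom with WT mice asked the same without amyloid. Again 0 of 7 members were called, where 0.0329% of all genes were, and DESeq2 and limma-voom also called 0. *Cd9* had the lowest p of the 7 (unadjusted p = 0.0053, adjusted p = 0.962), at 39.5 ± 3.26 CPM in WT and 35.4 ± 2.04 in Hom mice, a log2 fold change of -0.16 ± 0.05. It was the only member with an unadjusted p under 0.05, which 4.49% of all genes had. *Cd37* (-0.17 ± 0.11), *Cd53* (-0.16 ± 0.11) and *Cd63* (-0.09 ± 0.05) had log2 fold changes below 0, and *Cd81* (0.01 ± 0.05), *Cd82* (0.03 ± 0.09) and *Cd151* (0.00 ± 0.06) near it. The signs of *Cd81* and *Cd151* turned under other scalings of the libraries.

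Whether the difference between Hom and WT mice itself differed between the cohorts was tested as an interaction over all 40 libraries. Of the members 0 were called, of all genes 0 were called (0%), and DESeq2 and limma-voom called 0 members too. The interaction was negative for all 7, and 4 members had an unadjusted p under 0.05, as did 10.3% of all genes. The log2 interaction was -0.68 ± 0.20 for *Cd37* (adjusted p = 0.183), -0.39 ± 0.13 for *Cd63* (0.266) and -0.45 ± 0.17 for *Cd9* (0.359). It was -0.17 ± 0.08 for *Cd81* (adjusted p = 0.476) and -0.33 ± 0.22 for *Cd53* (0.568). A different effect of H157Y in the 2 cohorts was not shown for any member.

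Sex was examined because females and males were balanced in each group. In the amyloid cohort, with genotype as a covariate, 0 of 7 members were called between females and males by edgeR (0.24% of all genes were called), by DESeq2 or by limma-voom. *Cd9*, *Cd37*, *Cd53* and *Cd63* had unadjusted p under 0.05, as did 7.92% of all genes, with log2 differences of females from males of 0.42 ± 0.13, 0.44 ± 0.14, 0.48 ± 0.15 and 0.32 ± 0.10 and adjusted p of 0.232, 0.268, 0.21 and 0.201. *Cd81* (0.05), *Cd151* (0.08) and *Cd82* (-0.01) lay near 0. All 12 microglial markers were higher in amyloid females as well, 1 of them called, and their part was not tested. In the non-amyloid cohort 0 members were called (0.118% of all genes), and the log2 differences lay between -0.03 (*Cd9*) and 0.14 (*Cd53*). DESeq2 and limma-voom called 0 members there, and 0 had an unadjusted p under 0.05.

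The 5 amyloid WT females had *Cd63* at 60.5, 69.6, 81.1, 85.5 and 88.5 CPM, and the 5 amyloid Hom females at 37.6, 40.9, 54.5, 57.2 and 58.9. The 5 amyloid WT males had 47.3, 49.0, 56.2, 57.8 and 64.3 CPM, and the 5 amyloid Hom males 40.4, 42.4, 44.9, 45.5 and 51.4. WT and Hom females did not overlap for *Cd63*, whereas WT and Hom males did. Of all genes tested, 1.05% had every Hom female below every WT female, and 0.598% had every Hom male below every WT male. *Cd37* was at 7.73, 7.84, 10.3, 10.7 and 13.6 CPM in WT females and at 3.68, 4.58, 5.23, 5.95 and 6.94 in Hom females. In males it was at 5.68, 5.96, 6.97, 6.98 and 9.02 CPM in WT and at 2.84, 3.32, 3.90, 5.15 and 5.60 in Hom mice. For *Cd37* the genotypes were separate in both sexes. For *Cd9* the females were separate, with a lowest WT value of 105.1 and a highest Hom value of 102.1 CPM, and the males overlapped.

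The test of a different genotype effect in females and males called 0 members and 0 genes (0%), and 0 members had an unadjusted p under 0.05. *Cd63* had the lowest p, with an interaction of -0.34 ± 0.18 (females minus males; unadjusted p = 0.076, adjusted p = 0.817). DESeq2 and limma-voom called 0 members.

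**Figure D3:**
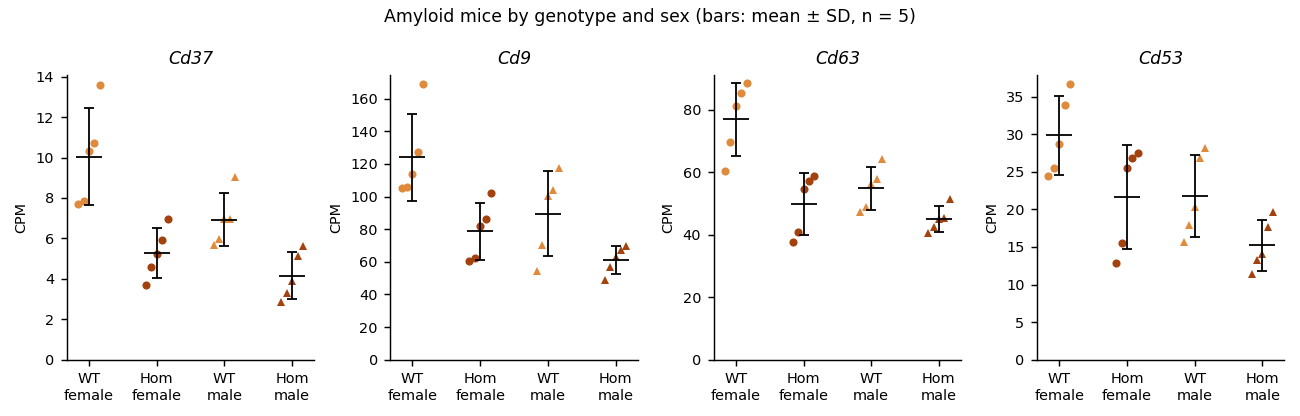
CPM (y axis, linear from 0) of *Cd37*, *Cd9*, *Cd63* and *Cd53* in the 20 amyloid mice by genotype and sex (x axis), each point 1 mouse, with mean and SD of 5. WT and Hom mice are separate for *Cd37* in both sexes, and WT females hold the highest value of every panel.

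The markers of microglia moved with the members. All 12 microglial markers were called higher in amyloid WT than in non-amyloid WT mice (median log2 fold change 1.11), and 10 of 12 in Hom mice (median 0.58). Their summed level ranged from 393.6 to 510.5 CPM in non-amyloid WT, 426.7 to 493.0 in non-amyloid Hom, 714.7 to 1605 in amyloid WT and 583.2 to 1004 in amyloid Hom mice. Between the amyloid genotypes, 0 of the 12 were called, all 12 were lower, and 11 had an unadjusted p under 0.05 (median -0.51). The part of these markers in the members' differences was not tested. As a share of that summed level, *Cd53* stood at 2.32 ± 0.35% in amyloid WT and 2.34 ± 0.42% in amyloid Hom mice, and *Cd9* at 9.47 ± 1.08% and 9.03 ± 0.78%. *Cd63* was at 5.94 ± 0.38% and 6.20 ± 0.77%, and *Cd37* at 0.757 ± 0.090% and 0.609 ± 0.111%. These shares of the 2 genotypes lay within 1 SD of each other for *Cd53*, *Cd9* and *Cd63*, and *Cd37* was lower in Hom mice by more than 1 SD. The other members had higher shares in amyloid Hom than in amyloid WT mice, *Cd81* at 31.1 ± 6.22% against 24.3 ± 4.90%, *Cd82* at 2.08 ± 0.48% against 1.60 ± 0.29% and *Cd151* at 2.86 ± 0.73% against 2.25 ± 0.46%. *Trem2*, like *Cd37*, had a lower share in amyloid Hom (4.32 ± 0.71%) than in amyloid WT mice (5.43 ± 1.01%). These shares were not tested. *Thy1* also moved in the amyloid cohort, from 1956 ± 370.4 CPM in WT to 1575 ± 250.05 in Hom mice (log2 fold change -0.31 ± 0.11, adjusted p = 0.224), and its part was not tested. *App* was at 1693 ± 141.4 CPM in amyloid WT and 1643 ± 71.3 in amyloid Hom mice (-0.04 ± 0.05, adjusted p = 0.752).

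The other marker lists had smaller shares of their genes called. Of the astrocyte markers, 3 of 8 were called higher in amyloid WT mice, *Gfap* among them. Between the amyloid genotypes 0 of 8 were called, but *Gfap* had a log2 fold change of -0.95 ± 0.24 (adjusted p = 0.083), a larger difference than that of any member. Apart from *Gfap*, only *Aqp4* had an unadjusted p under 0.05 (-0.32 ± 0.12, adjusted p = 0.326). The remaining astrocyte markers lay between -0.11 (*Aldh1l1*) and 0.05 (*Slc1a2*), so *Gfap* did not stand for the list. *Gfap* was also called higher in amyloid females than males (0.83 ± 0.17, adjusted p = 0.0377). The summed astrocyte level was 6586 ± 475.5 CPM in amyloid WT and 6217 ± 541.7 in amyloid Hom mice, and its part in the members' differences was not tested. The oligodendrocyte list had 0 of 8 called in WT and 2 of 8 in Hom mice between cohorts. The monocyte and border macrophage list (7 genes) and the erythroid list (5 genes) had 0 called in either comparison of cohorts, and their summed levels stayed under 21.5 and 49.0 CPM in every library. Of the lymphocyte list, 7 of 9 genes were tested and their summed level was between 8.94 and 47.3 CPM. The sum was lower in amyloid WT (12.9 ± 2.67 CPM) than in non-amyloid WT mice (19.8 ± 3.87). *Cd8a* was called higher in amyloid mice of both genotypes (log2 fold change 2.96 ± 0.53 in WT and 2.49 ± 0.55 in Hom mice). *Cd3e* was called higher in WT mice (adjusted p = 0.000845) and *Cd3g* in Hom mice (adjusted p = 0.0216). *Cd4* was called lower in WT mice (-0.72 ± 0.13, adjusted p = 0.000393). In both genotypes, *Cd4* was the only tested gene of this list with a log2 fold change below 0 between cohorts. Neuronal markers had 0 of 7 called in WT and 1 of 7, *Rbfox3*, called lower in Hom mice, and the endothelial list had 1 of 6, *Cldn5*, called higher in WT mice. The pericyte and fibroblast list had 0 of 6 called.

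Some members varied together between mice of the same group and sex and others did not. With the means of the groups and sexes removed from log2 CPM, Pearson's r over the 40 libraries was 0.77 between *Cd81* and *Cd151*, 0.75 between *Cd9* and *Cd63*, 0.67 between *Cd81* and *Cd82* and 0.64 between *Cd9* and *Cd53*. Of the 21 pairs 3 were below 0, all with *Cd53*, at -0.16 with *Cd151*, -0.15 with *Cd82* and -0.09 with *Cd81*. Without replicate 19 these were -0.43, -0.25 and -0.25. Within the 20 non-amyloid libraries 8 pairs were below 0, with *Cd53* at -0.67 with *Cd151*, -0.58 with *Cd82* and -0.42 with *Cd81*, and within the 20 amyloid libraries 0 were. The points share library and depth, so these values are a description and carry no p. For *Cd9* and *Cd63* the value was 0.84 within the 20 amyloid and 0.37 within the 20 non-amyloid libraries, and for *Cd81* and *Cd151* it was 0.89 and 0.57. For the leukocyte members *Cd37* and *Cd53* it was 0.41 and -0.28, and 0.17 over the 40 libraries. *Cd9*, *Cd63*, *Cd53* and *Cd37* followed the mean of the microglial markers most closely (r = 0.84, 0.72, 0.64 and 0.70), *Cd63* as closely the astrocyte mean (0.72). *Cd82* followed the oligodendrocyte mean (r = 0.71 against 0.31 for microglia). *Cd81* and *Cd151* had their highest r with the neuronal mean (0.72 and 0.62). *Cd151* also had r of 0.49 with the endothelial mean and 0.48 with the pericyte and fibroblast mean, and *Cd81* had 0.28 and 0.41.

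**Figure D4:**
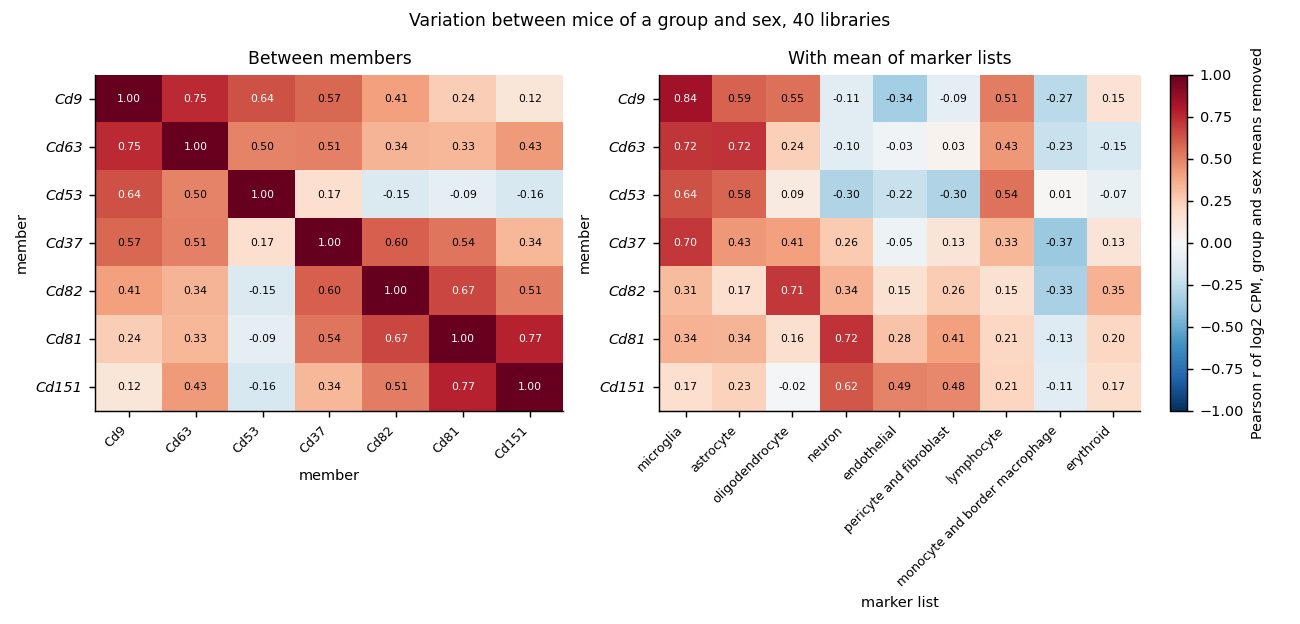
Pearson r of log2 CPM over 40 libraries after removal of group and sex means, between members (left) and between each member and the mean of each marker list (right), on a colour scale from -1 to 1. *Cd9*, *Cd63*, *Cd53* and *Cd37* have r from 0.64 to 0.84 with microglial markers, *Cd82* 0.71 with oligodendrocyte markers, and *Cd81* and *Cd151* 0.72 and 0.62 with neuronal markers.

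Among 15198 genes with a mean of at least 1 CPM, those whose residual pattern was most like each member's were named by the same r. They were *Cx3cr1* (0.86), *Ctsh* (0.84) and *Ly86* (0.82) for *Cd9*, and *Laptm5* (0.87), *Lag3* (0.82) and *Itgb2* (0.80) for *Cd37*. For *Cd53* they were *Gpr34* (0.88), *P2ry13* (0.87) and *Siglech* (0.84), and for *Cd63* *Fcer1g* (0.84), *Npc2* (0.84) and *F11r* (0.82). For *Cd82* they were *Mag* (0.89), *Unc5b* (0.86) and *Rhog* (0.85). For *Cd81* they were *Wbp1* (0.87), *Bsg* (0.87) and *Zdhhc12* (0.86), and for *Cd151* *Glmp* (0.88), *Slc38a3* (0.86) and *Psmb2* (0.84). Without replicate 19 the closest gene was the same for *Cd9*, *Cd37*, *Cd53*, *Cd82* and *Cd151*, while it was *Npc2* for *Cd63* (0.86) and *Taldo1* for *Cd81* (0.90).

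Of 24 further tetraspanin genes 22 were tested, and between cohorts 1 was called in WT mice, *Tspan32*, which like *Cd37* is expressed in blood cells (log2 fold change 1.05 ± 0.27, adjusted p = 0.0126). *Tspan32* was also higher in amyloid Hom than in non-amyloid Hom mice but was not called (1.26 ± 0.41, adjusted p = 0.0641). In Hom mice *Tspan12*, a helper of Norrin signalling in blood vessels, was called higher (0.38 ± 0.08, adjusted p = 0.00644) and *Tspan11* lower (-0.39 ± 0.11, adjusted p = 0.0404). The median of the 22 was 0.06 in WT and 0.03 in Hom mice, against 0.87 and 0.48 for the 7 members and 0.00 and 0.03 for all genes. In amyloid Hom against amyloid WT mice 0 of the 22 were called, and *Tspan14* alone had an unadjusted p under 0.05 (-0.16 ± 0.07, adjusted p = 0.483).

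TspanC8 tetraspanins escort the sheddase ADAM10 to the cell surface, and ADAM10 and ADAM17 release the ectodomains of membrane proteins, TREM2 among them. Of the 7 genes of this list that were tested, *Adam17* was called higher in amyloid mice of both genotypes (log2 fold change 0.31 ± 0.07 in WT, adjusted p = 0.00744, and 0.26 ± 0.06 in Hom mice, adjusted p = 0.00615). *Adam10* had log2 fold changes of 0.10 in both and was not called. *Tspan15* (0.23 ± 0.06) and *Tspan14* (0.24 ± 0.06) had adjusted p of 0.0166 and 0.0231 in WT mice but stayed under the fold change threshold. Between the amyloid genotypes 0 of the 7 were called.

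Among 20 tested genes for proteins that bind tetraspanins, 7 were called higher and 1 lower between cohorts in WT mice, and 6 higher and 0 lower in Hom mice. The leukocyte integrin chains *Itgb2* (log2 fold change 2.16 ± 0.16 in WT and 1.399 ± 0.12 in Hom mice) and *Itgam* (1.18 ± 0.13 and 0.60 ± 0.10), the latter also on the microglial list, had the lowest p in WT mice. The interferon-induced *Ifitm3* (1.07 ± 0.19 and 0.42 ± 0.08), the laminin-binding integrin chain *Itga6* (0.45 ± 0.08 and 0.29 ± 0.06) and the hyaluronan receptor *Cd44* (0.91 ± 0.25 and 0.53 ± 0.12) were called in both genotypes. *Cd4* was the member of the list called lower (-0.72 ± 0.13 in WT mice). In amyloid Hom against WT mice 0 of the 20 were called and 7 had an unadjusted p under 0.05, led by *Itgb2* (-0.80 ± 0.17, adjusted p = 0.0554) and *Ifitm3* (-0.75 ± 0.18, adjusted p = 0.0791).

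Genes that sort cargo into extracellular vesicles were examined because *Cd9* and *Cd63* mark such vesicles. Of 17 tested, *Rab27a* (0.49 ± 0.10), a GTPase of vesicle docking, and *Anxa2* (0.76 ± 0.16) were called higher between cohorts in WT mice. In Hom mice *Anxa2* (0.32 ± 0.10) was called higher and *Smpd3* (-0.44 ± 0.12), the neutral sphingomyelinase of vesicle budding, lower. The list's median was 0.00 in WT mice. None of the 17 was called between the amyloid genotypes, where 2 had an unadjusted p under 0.05. Of the 11 late endosomal and lysosomal genes tested, whose proteins share their compartment with CD63, 6 were called higher in each genotype between cohorts. They were *Cd68* (2.46 ± 0.15 in WT and 1.67 ± 0.15 in Hom mice), *Slc11a1*, *Ctsd*, *Laptm5*, *Tmem106a* and *Lamp2*. In amyloid Hom against WT mice all 11 were lower, 0 were called, and 5 had an unadjusted p under 0.05, with *Laptm5* at -0.79 ± 0.16 (adjusted p = 0.0525) and *Lamp1* at -0.08 ± 0.05 (adjusted p = 0.59).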

How the data were processed

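Cortical RNA of 40 mice in 4 groups of 10 was analysed from one table of gene counts. The authors deposited raw counts, whole numbers per gene with no normalization. The paper's methods name MAP-RSeq with TopHat, Bowtie and featureCounts on mm10, whereas the submitters' processing notes name STAR 2.5.2b, featureCounts 1.5.1 and edgeR, and which of these made the table cannot be told apart here. The methods left out 1 amyloid Hom female, not named, for a low share of gene counts and its strand check. Replicate 19, an amyloid Hom female, had the lowest total and stood apart in counts on opposite-strand genes, but no source used here says that it is that mouse, so all 10 were kept and replicate 19 was left out as an alternative. The 37 mitochondrial genes are listed at 0.

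Genes that reached 10 counts in 4 or more libraries were kept, scaled by TMM and tested with edgeR 4.0.16 (glmQLFit, glmQLFTest, R 4.3.3) over all 21253 genes, without a covariate in the comparisons of genotype and cohort and with genotype as a covariate in those of sex. A gene was called where the p adjusted by Benjamini-Hochberg was under 0.05 and the log2 fold change lay beyond 0.25 in either direction. CPM are TMM-scaled, and SE is the absolute log2 fold change divided by the root of the F statistic. Likeness used log2 CPM with a prior count of 2. Alternatives used DESeq2 1.42.0, limma 3.58.1 (voom), other scalings, filters and covariates, and each library left out in turn. The test was tried on simulated data. The alternative that joins sex as a covariate with the removal of replicate 19 was chosen after seeing the data. Members and gene lists were chosen with earlier results of these data known. Named genes were the 7 members, *Trem2*, *Thy1*, *App*, up to 6 genes per list with the lowest p in amyloid Hom against WT mice or in amyloid against non-amyloid WT mice, and the 3 closest genes per member. *Tspan11*, *Tspan12*, *Smpd3*, *Cd44*, *Lamp1*, *Lamp2*, *Adam10* and the marker genes named fall partly outside this rule and were named after their values were seen. Some single genes of the lists are not reported here by name.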

Additional observations from a re-analysis of the deposited data

Results flagged for a closer look

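Each member was examined in each of the 4 groups for a mouse whose gap to its nearest neighbour was above 0.466 of the range of its group of 10. Of these 28 sets, 1 held such a mouse, where chance flags about 1 in 20. It was *Cd151* in amyloid WT replicate 12, a female at 32.4 CPM, with the next mouse at 26.2 CPM.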

How the results depend on the processing

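Of the values of single members under the alternatives, 1073 kept their direction and side of the threshold, 25 became called, 0 lost a call and 36 changed sign. In amyloid Hom against WT mice, the count of members called was 3 with DESeq2, 3 with sex as a covariate, 3 in 1 fit of all 40 libraries, 3 with sex as a covariate and without replicate 19, 1 with upper-quartile normalization and 1 with filterByExpr, and from 0 to 3 with 1 library left out. These fits called 300, 251, 612, 204, 22 and 65 of all genes, against 16, and the cause was not tested. The counts of members called in the other comparisons stayed within 1.5 times their value, from 6 to 7 between cohorts in WT mice and 4 in Hom mice with 1 library left out. Changes of sign were among values that were smaller in size than their SE in the results above. In non-amyloid Hom against WT mice *Cd81* was -6.5e-05 with upper-quartile normalization and -0.0013 with library size alone, and *Cd151* was -0.0066, -0.0079, -0.0012 and -0.00032 with those 2 scalings, without a filter and with sex in the fit. With 1 library left out they ranged from -0.021 to 0.029 and from -0.021 to 0.036, and *Cd82* from -0.0094 to 0.077. *Cd82* was 0.053 between amyloid females and males with limma-voom, and 0.027 without replicate 19. With limma-voom the interaction of genotype and sex was 0.022 for *Cd37*, against -0.19 ± 0.29 by edgeR. With 1 library left out that interaction ranged from -0.23 to 0.027 for *Cd9* and from -0.055 to 0.19 for *Cd53*. Library size alone or upper-quartile scaling moved the median of all genes by less than 0.1. No paired analysis was possible because replicate numbers run from 1 to 40 and are not shared between groups. Counting error was a large part of the CV of *Cd37* in non-amyloid WT mice (7.19% of 10.6%). It was a smaller part in non-amyloid Hom mice (7.54% of 19.6%). The counts of *Cd37* in these groups were 123 to 270.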
